A study of Mus musculus with 44 samples.

Results

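The 10 genes described here build the contractile apparatus of smooth muscle, and some of them, such as Acta2, also that of myofibroblasts. They were followed through bleomycin-induced fibrosis of mouse skin and through recovery from it. The set was chosen by name, as genes of the contractile filaments and their regulators: Acta2, Tagln, Cnn1, Myh11, Des, Myl9, Actg2, Smtn, Cald1 and Lmod1. These are 10 of the 43411 genes in the data, and all 10 were among the 17037 genes that passed the filter on low values, a mean normalized count above 3 over all mice. A normalized count is the number of reads on a gene divided by 1 size factor per mouse.

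RNA was sequenced from back skin of 44 female WT C57Bl/6 mice aged 8 weeks when treatment began, injected daily under the back skin with 100 µL. The groups were 10 mice given saline, 10 given bleomycin (1 U/mL) for 2 weeks and 10 given it for 4 weeks, with 6 and 8 mice left untreated for 6 and 10 weeks after 4 weeks of bleomycin. This concentration is the labels' own, and a lower one also stands in the study's text. All mice began at the same age, so age at harvest differed between the bleomycin and recovery groups. The sources used here do not give the harvest time of the saline mice. Effects of treatment or recovery and of age therefore cannot be told apart in these comparisons. Bleomycin is a DNA-damaging antibiotic whose repeated injection is used as a model of the skin fibrosis of systemic sclerosis. Each library came from 1 piece of whole skin, so fewer cells of a type and less RNA per cell cannot be told apart.

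Smooth muscle contracts when myosin filaments, made of the heavy chain Myh11 and light chains such as Myl9, pull on thin filaments of the actins Acta2 and Actg2. Calponin (Cnn1), caldesmon (Cald1), transgelin (Tagln), leiomodin (Lmod1) and smoothelin (Smtn) bind the thin filaments, and desmin (Des) forms the intermediate filaments that tie the apparatus to the cell. In skin these genes are known from the arrector pili muscles that raise the hairs and from the walls of vessels. Some of them are also known, in fibrosis, from myofibroblasts, fibroblasts that have gained Acta2. Desmin is shared with skeletal muscle, which lies under mouse skin as a thin sheet, and with pericytes of small vessels.

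Every mouse had between 8509094 and 15285577 reads on genes, and the member with the fewest reads in any mouse was Actg2 with 73. The labelled tissue was checked by its markers: the 7 genes of basal epidermis summed to between 90706 and 180029 normalized counts per mouse, and the 9 fibroblast genes to between 52103 and 256268, with no marker at 0 in any group. The 12 genes of fast skeletal muscle summed to between 102480 and 439294, so the biopsies held muscle as well as skin. Mouse 2 of the 2-week group and saline mouse 1 had the lowest median correlations to their own group, 0.938 and 0.942, close to the next mice at 0.947 and 0.949. Calls that change without the first pair are given as such. Correlations were not part of that check.

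The actin gene Acta2 and the light chain gene Myl9 varied together most closely of all pairs of members. Both carried CArG boxes in the 250 bases before the start of the gene. A CArG box is the site of serum response factor, the main activator of contractile genes with its partner myocardin. Cnn1, with no box in this window, also varied with Acta2 and Myl9 within groups (Pearson's r of 0.83 and 0.85). Tagln, Myh11 and Actg2 were not searched. A link between the boxes and this covariation was not tested. The boxes are shown in capitals inside windows of 30 bases, 5′ to 3′, from RefSeq on GRCm38.p6.
Acta2, 84 bases before the start, chr19:34255438-34255467, minus strand: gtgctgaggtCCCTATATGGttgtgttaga
Acta2, 34 bases before the start, chr19:34255388-34255417, minus strand: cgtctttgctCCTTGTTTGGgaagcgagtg
Myl9, 161 bases before the start, chr2:156775293-156775322, plus strand: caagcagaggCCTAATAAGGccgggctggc
Myl9, 99 bases before the start, chr2:156775355-156775384, plus strand: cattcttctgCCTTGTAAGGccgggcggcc

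The search took CArG boxes with at least 5 A or T bases among the 6 in the middle. The pattern is its own reverse complement, so both strands were covered, and no box overlapped another. Such a box was present in 8.59% of 32851 RefSeq promoters and in 2 of the 8 promoters listed for 7 members; 1 box, the first of Myl9, had A or T at all 6 positions, a form present in 1.47% of promoters. Des, Cnn1, Lmod1, Smtn and the 2 promoters of Cald1 had none in this window. RefSeq starts Acta2 inside a longer gene model of GENCODE, in which 217 of its 250 bases are exon, and 44 of the 250 bases of Myl9 are exon in the same way. The promoter of Des is printed because Des was the member with the largest difference between groups; it lies at chr1:75360042-75360291, plus strand, outside the GENCODE gene, and holds no box.
Des: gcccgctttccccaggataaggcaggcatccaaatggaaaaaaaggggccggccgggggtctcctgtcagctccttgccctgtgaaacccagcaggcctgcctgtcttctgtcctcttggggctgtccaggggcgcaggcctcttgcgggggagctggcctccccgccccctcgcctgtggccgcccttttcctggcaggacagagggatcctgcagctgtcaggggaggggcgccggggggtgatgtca

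Levels of different genes were compared per kb of exon. In the saline mice the median level was 1949 normalized counts per kb for Des, 1294 for Acta2, 976 for Myl9 and 538 for Tagln. Smtn (317), Myh11 (239), Actg2 (169) and Cald1 (140) followed, and Cnn1 (75.2) and Lmod1 (63.3) were lowest. In saline the range of each gene over the 10 mice overlapped that of the next gene in this order. Des stayed first in all 5 groups, and its range lay clear of that of Acta2 in each group except saline.

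**Figure D1:**
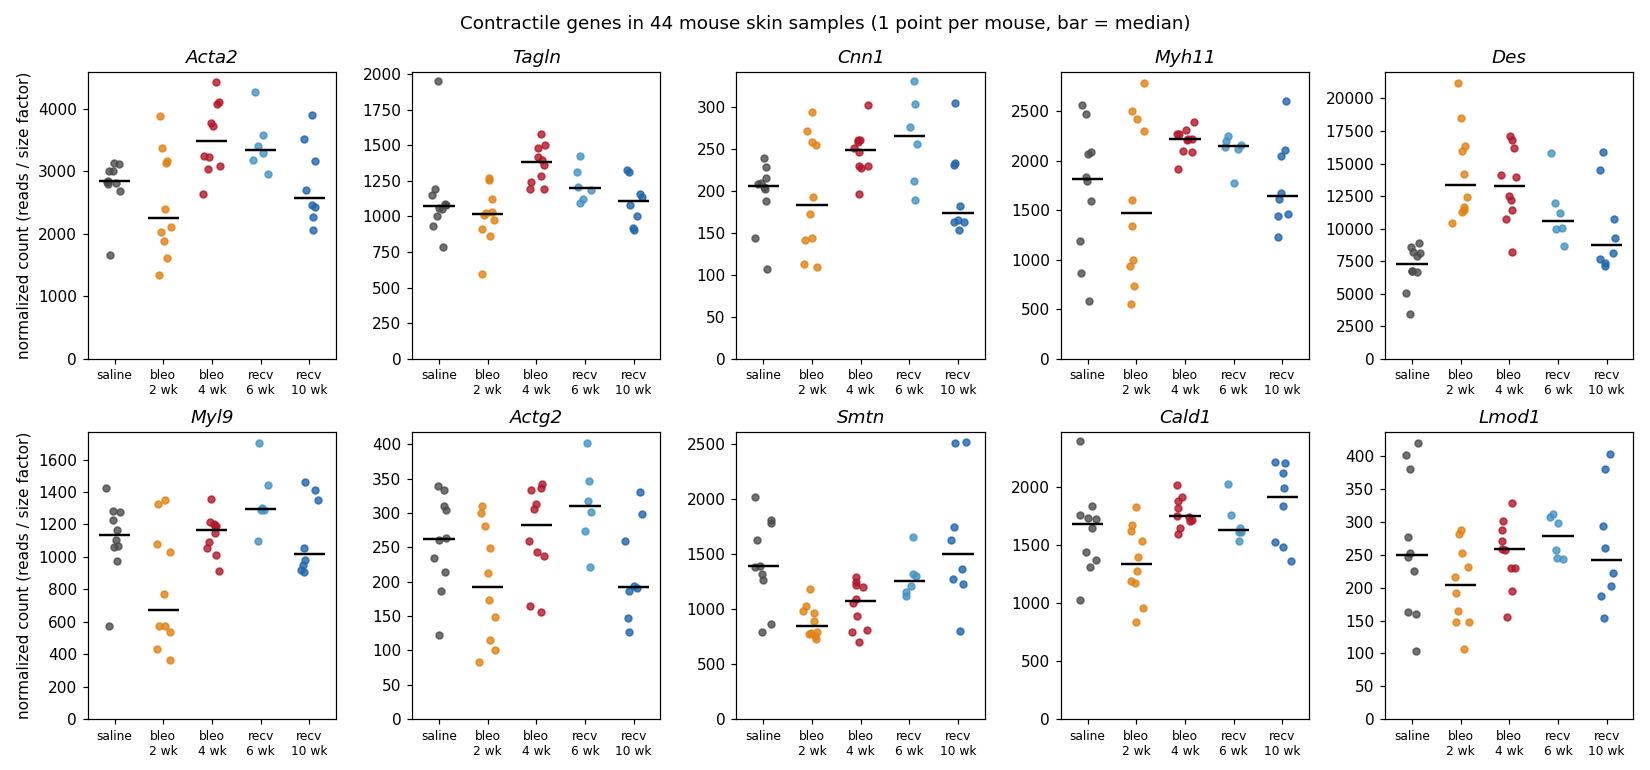
Normalized count of each contractile gene in each mouse (vertical axis, starting at 0) by group (horizontal axis), with 1 point per mouse and a bar at the median. Des stands above saline in every 2-week mouse, Smtn is low at 2 weeks, and Acta2, Myl9 and Myh11 spread widely at 2 weeks and narrowly at 4 weeks.

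Desmin (chr1:75360329-75368579, plus strand, GRCm38) rose with bleomycin and was the only member with a group that did not overlap saline. Normalized counts of Des in saline ran from 3437 to 8873 (median 7318), and at 2 weeks from 10406 to 21155 (median 13322). All 10 mice of the 2-week group were above all 10 saline mice; over all genes tested, 4.77% had groups that did not overlap in this comparison. The rise was 2.05-fold, a log2 fold change of 1.04 (SE 0.16, limma adjusted p = 1.61e-06).

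At 4 weeks Des ran from 8208 to 17085 (median 13247), which overlapped saline in 1 mouse, and was higher by a log2 fold change of 0.94 (SE 0.16, limma adjusted p = 9.952e-06). The 4-week and 2-week groups did not pass the test against each other, with a difference of -0.10 and a 95% interval from -0.43 to 0.23. After 6 weeks of recovery Des ran from 8670 to 15822 (median 10620), and was still higher than saline by 0.70 (SE 0.19, limma adjusted p = 0.01351), with 6 of 6 mice above the saline median. Without mouse 5 of the 6-week recovery group the estimate was 0.60 with a limma adjusted p of 0.07041, so this call rests on that mouse. Without the 4 mice least like their groups it was 0.53, under the fold threshold. After 10 weeks of recovery Des ran from 7116 to 15917 (median 8718), overlapping saline, and its log2 fold change of 0.50 had a limma adjusted p of 0.07336.

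Skeletal muscle and pericytes also express desmin, and their markers were read beside it. The 12 fast muscle genes (among them Acta1, Myh4 and Ckm) summed to between 102480 and 319145 in saline and between 155380 and 343094 at 2 weeks, which overlap throughout, and 0 of 12 were called by limma at 2 weeks (1 of 12 at an unadjusted p under 0.05, median log2 fold change -0.04). At 4 weeks 1 of 12 was higher and 1 lower (167654 to 286124), and in each recovery group 1 of 12 was higher (218578 to 398056 after 6 weeks and 209953 to 439294 after 10 weeks).

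The 7 slow muscle genes, such as Csrp3 and Myh7, moved more. Of these, 3 were higher at 2 weeks, 5 at 4 weeks and 7 of 7 in each recovery group, with median log2 fold changes of 0.62, 2.41, 3.001 and 3.32 against saline. Their summed level was 315 to 1319 in saline, 826 to 2239 at 2 weeks, 1044 to 4022 at 4 weeks, 1089 to 5316 after 6 weeks of recovery and 895 to 17909 after 10 weeks.

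The 8 pericyte genes were 3 higher and 2 lower at 2 weeks, 3 higher and 1 lower at 4 weeks, and 3 and 1 higher in the 6- and 10-week recovery groups. They summed to between 3287 and 6568 in saline, 4385 and 6692 at 2 weeks, 5267 and 6930 at 4 weeks, 6218 and 7787 after 6 weeks of recovery and 5191 and 6963 after 10 weeks. Rgs5, a regulator of G protein signalling and the highest of the list, was higher than saline in all 4 groups, by log2 fold changes of 0.80, 0.60, 0.79 and 0.67. The median log2 fold change of the list was smaller, at 0.13, 0.21, 0.41 and 0.37 in the same order. Cspg4 went the other way at 2 weeks, with a median of 509 normalized counts beside 881 in saline. No marker of the muscle and pericyte lists was at 0 in the whole of any group, and their part in the result for Des was not tested.

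**Figure D2:**
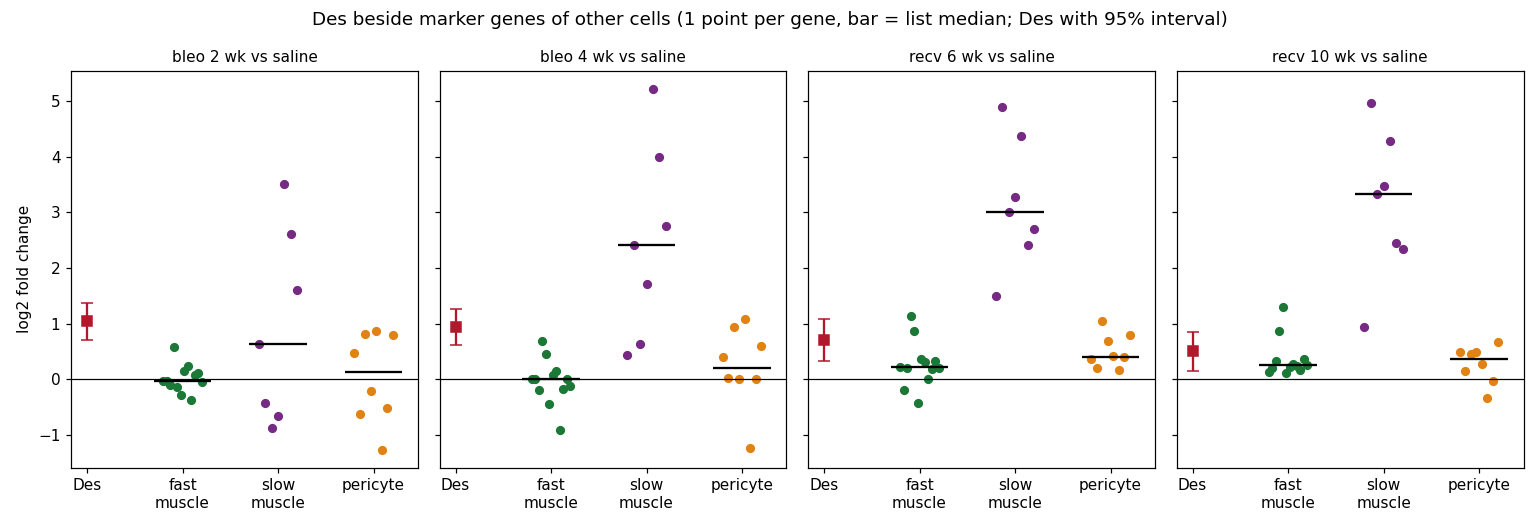
Log2 fold change against saline (vertical axis) of Des, with its 95% interval, and of each marker gene of fast muscle, slow muscle and pericytes (1 point per gene, bar at the list median), in 4 panels for the 2-week, 4-week, 6-week recovery and 10-week recovery groups. Des is above 1 at 2 weeks while the fast muscle median is -0.04, and the slow muscle median climbs from 0.62 to 3.32.

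From mouse to mouse within groups, Des followed the fast muscle score (the mean log2 deviation of the 12 genes) with Pearson's r of 0.60 over the 44 mice (permutation p = 0.00016, adjusted p = 0.00056) and Spearman's rho of 0.64 (permutation p = 2e-05, adjusted p = 6.533e-05). Leaving out the 2 mice farthest from the median score, r was 0.70. Within single groups r was 0.97 in saline, -0.21 at 2 weeks and 0.60 at 4 weeks. After 6 and 10 weeks of recovery it was 0.97 and 0.90. The -0.21 includes mouse 2 of the 2-week group, with the highest Des of that group (21155) beside a fast muscle sum of 164419. An r without this mouse was not computed, so the relation among the other 2-week mice is not given. In saline, mouse 1 had both the lowest Des (3437) and the lowest fast muscle sum (102480); without this mouse the rise of Des at 2 weeks was 0.93 (limma adjusted p = 3.955e-06). Des was not alone in following the fast muscle score. Myh11 did so with r of 0.59 (permutation p = 0.00081, adjusted p = 0.002481) and Cnn1 with r of 0.50 (permutation p = 0.00244, adjusted p = 0.006293). Without the 2 farthest mice these r were 0.35 and 0.36. Lmod1 is given below. These are among 49 relations computed between members and scores or Acta2, and the adjusted values cover each kind of coefficient over all 49.

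Smoothelin (Smtn, chr11:3517523-3540612, minus strand), an actin-binding protein of differentiated smooth muscle, was the only member called lower than saline, at 2 weeks. Myl9 was also lower then, by -0.57 (limma adjusted p = 0.007559), just under the fold threshold. Normalized counts of Smtn ran from 795 to 2017 in saline (median 1389) and from 727 to 1185 at 2 weeks (median 843). The 2-week mice lay below the saline range or in its lower part, and 0 of 10 reached the saline median, although the groups overlapped. Of all genes, 7.43% were called lower at 2 weeks. Its log2 fold change at 2 weeks was -0.64 (SE 0.16, limma adjusted p = 0.001364). Without saline mouse 1 it was -0.58 (limma adjusted p = 0.004051), and without that mouse and mouse 2 of the 2-week group -0.55 (limma adjusted p = 0.007839), both just under the 1.5-fold threshold of a log2 change of 0.585.

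At 4 weeks Smtn ran from 703 to 1289 (median 1074) with a log2 fold change of -0.44 (limma adjusted p = 0.02956), under the fold threshold. After recovery it ran from 1123 to 1653 (6 weeks) and from 801 to 2519 (10 weeks), with log2 differences from saline of -0.10 and 0.16 and 95% intervals from -0.47 to 0.28 and from -0.18 to 0.51.

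Genes of growing hair moved beside Smtn. All 10 tested hair follicle genes, such as Krt71, Krt25 and Krt27, keratins of the inner root sheath, were lower at 2 and 4 weeks, with median log2 fold changes of -8.004 and -6.72, and 0 of 10 were called by limma in either recovery group (2 and 0 at an unadjusted p under 0.05 after 6 and 10 weeks). Their summed level ran from 2230 to 232906 in saline, 165 to 2155 at 2 weeks, 187 to 5360 at 4 weeks, 284 to 107484 after 6 weeks of recovery and 1561 to 172822 after 10 weeks. The 2 saline mice with the least hair RNA, mice 2 and 6 (sums of 2230 and 4436), had the lowest Smtn of their group. These values, 795 and 862, are within the 2-week range. After 6 weeks of recovery mouse 4 had the highest of both (107484 and 1653). Other groups went the other way. At 4 weeks mouse 3 had the highest hair sum (5360) and the lowest Smtn (703). After 10 weeks of recovery the lowest Smtn (801, mouse 3) stood beside a hair sum of 17040. In that group mice 4 and 7, with the lowest sums (1561 and 2948), had Smtn of 1364 and 1225.

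Over the 44 mice, within groups, Smtn followed the hair score with r of 0.49 (permutation p = 0.00213, adjusted p = 0.005798) and rho of 0.46 (permutation p = 0.00403, adjusted p = 0.009873), and r was 0.61 without the 2 farthest mice. The groups differed: r was 0.86 in saline, 0.32 at 2 weeks, -0.19 at 4 weeks, 0.78 after 6 weeks of recovery and 0.59 after 10 weeks. Cald1 followed the hair score more closely, with r of 0.55 (permutation p = 5e-05, adjusted p = 0.0002042) and rho of 0.47 (permutation p = 0.00131, adjusted p = 0.003378), or 0.63 without the 2 farthest mice. Its r was 0.91 in saline and 0.92 after 10 weeks of recovery, but 0.43 at 2 weeks, -0.50 at 4 weeks and 0.52 after 6 weeks of recovery. The part of hair in the result for Smtn was not tested.

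**Figure D3:**
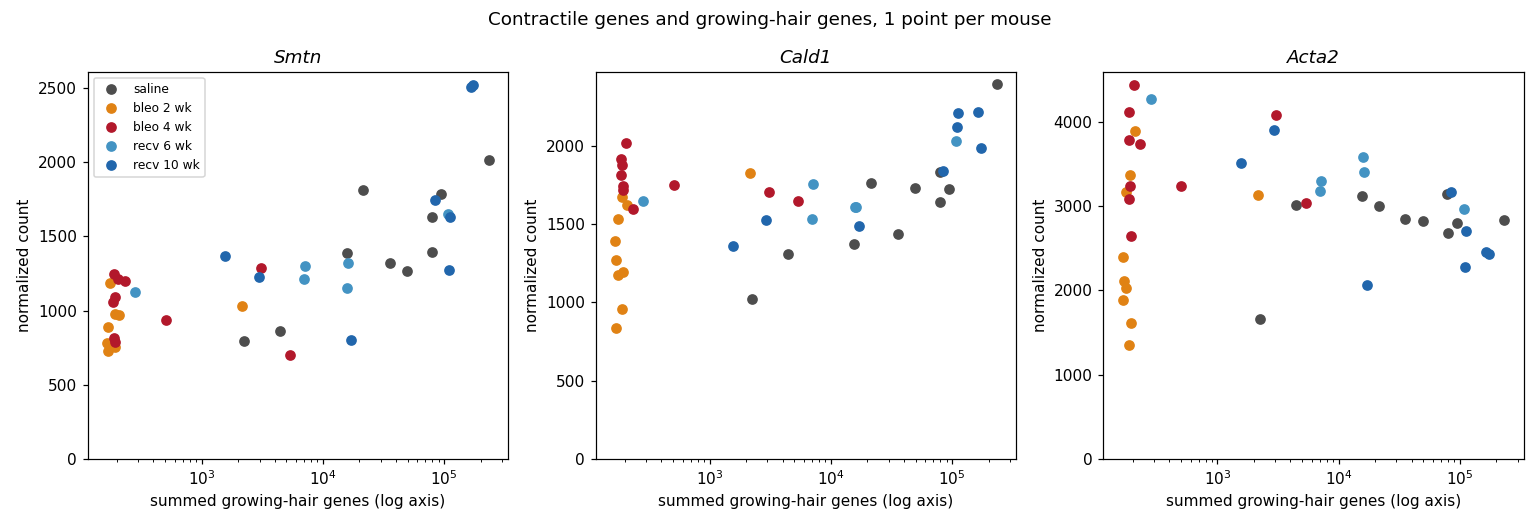
Normalized count of Smtn, Cald1 and Acta2 (vertical axes, starting at 0) against the summed normalized count of the growing-hair genes (horizontal axes, log scale), 1 point per mouse, coloured by group. Smtn and Cald1 are high in most mice with the highest sums, while Acta2 shows no such rise; among saline mice Smtn runs from 795 at the lowest sum to 2017 at the highest.

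The actins and their partners Myl9 and Cnn1 gave no call against saline at either time of bleomycin. Normalized counts of Acta2 (chr19:34241090-34255590, minus strand), the actin that defines myofibroblasts in tissue, ran from 1656 to 3139 in saline (median 2842), 1348 to 3888 at 2 weeks (median 2252), 2643 to 4437 at 4 weeks (median 3488), 2961 to 4264 after 6 weeks of recovery (median 3347) and 2068 to 3899 after 10 weeks (median 2581). All groups overlapped, with 9 of 10 of the 4-week mice above the saline median and 4 of 10 of the 2-week mice. Log2 differences from saline were -0.22 at 2 weeks (95% interval -0.51 to 0.07), 0.34 at 4 weeks (0.06 to 0.63, limma adjusted p = 0.05441), 0.31 after 6 weeks of recovery (-0.02 to 0.65) and 0.00 after 10 weeks (-0.31 to 0.31).

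The comparison of 4 with 2 weeks was positive for 9 of 10 members, with a median log2 difference of 0.45 beside -0.003 over all genes. As many members varied together within groups, these are not 10 separate results. Acta2 was higher at 4 weeks by 0.56 (SE 0.14, limma adjusted p = 0.01382), and each of the 10 mice of the 4-week group lay above the 2-week median. Tagln (0.46, limma adjusted p = 0.008761) and Cald1 (0.44, limma adjusted p = 0.02196) also passed the test but stayed under the fold threshold, as Acta2 did; by adjusted p alone 4 of 10 members were higher, against 3.06% of all genes. Only Myl9 also passed the fold threshold.

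Myl9 (chr2:156775420-156781658, plus strand), the regulatory light chain whose phosphorylation switches smooth muscle myosin on, ran from 572 to 1426 in saline (median 1134), 367 to 1352 at 2 weeks (median 674), 911 to 1360 at 4 weeks (median 1168), 1101 to 1703 after 6 weeks of recovery (median 1295) and 909 to 1459 after 10 weeks (median 1018). The groups overlapped, and the 2-week mice spread most widely (CV 45.4%). At 2 weeks its log2 difference from saline was -0.57 (SE 0.17, limma adjusted p = 0.007559), just under the fold threshold, and at 4 weeks 0.06. The 2-week difference passed the threshold when saline mouse 1 or 2 or 2-week mouse 3, 8, 9 or 10 was left out, with values from -0.68 to -0.59. Between 2 and 4 weeks it rose by 0.63 (SE 0.17, limma adjusted p = 0.0229). Of all genes, 2.35% were called in this comparison, against 1 of 10 members. This call is not firm: without mouse 2, 5 or 7 of the 2-week group the estimate was 0.58, 0.55 or 0.52, under the fold threshold, and the count tests on recovered reads gave 0.50 with both edgeR and DESeq2.

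Actg2 (chr6:83512905-83536265, minus strand), the enteric smooth muscle actin, had the same order of medians as Myl9 among the first 4 groups: 263 in saline, 193 at 2 weeks, 283 at 4 weeks and 310 after 6 weeks of recovery, then 192 after 10 weeks. Its log2 differences from saline, -0.46, 0.08, 0.31 and -0.26, did not pass the test in any group, nor did its 0.53 between 2 and 4 weeks (limma adjusted p = 0.1333). Cnn1 (chr9:22099216-22109630, plus strand), which holds back the actomyosin ATPase, had medians of 206, 182, 248, 265 and 173 in the same order of groups. Its differences from saline were -0.05, 0.36, 0.43 and 0.03, and none passed the test.

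Myh11 (chr16:14194535-14291372, minus strand) is the heavy chain found almost only in smooth muscle, and its spread over mice was unequal between groups. Its normalized counts ran from 581 to 2568 in saline (CV 38.4%), 558 to 2788 at 2 weeks (CV 50.8%), 1919 to 2391 at 4 weeks (CV 6.08%), 1780 to 2254 after 6 weeks of recovery (CV 7.97%) and 1231 to 2609 after 10 weeks (CV 25.4%). The spread itself was not tested. All 10 mice of the 4-week group were above the saline median of 1818, but the log2 difference of 0.49 had a 95% interval from 0.03 to 0.95 and a limma adjusted p of 0.09174.

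Transgelin (Tagln, chr9:45929619-45936058, minus strand), an early marker of smooth muscle, ran from 784 to 1947 in saline (median 1070) and from 1193 to 1577 at 4 weeks (median 1380). All 10 mice of the 4-week group lay above the saline median, and the log2 difference of 0.31 (SE 0.11, limma adjusted p = 0.02459) was under the fold threshold. At 2 weeks it ran from 598 to 1268 with a difference of -0.16 (95% interval -0.38 to 0.06), and it ran from 1097 to 1427 and from 901 to 1329 in the recovery groups. Tagln overlaps Pcsk7 on the other strand, and 58.3% of its 50-base stretches also occur in transcripts of Pcsk7 or Gm48529, so its reads are uncertain where strand was not used in counting. The share was 9.46% for Smtn, 4.61% for Des and at most 0.34% for the other members.

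Caldesmon (Cald1, chr6:34598500-34775473, plus strand), which blocks myosin on the thin filament and has both a smooth muscle and a nonmuscle form, ran from 1024 to 2397 in saline (median 1683), 835 to 1826 at 2 weeks (median 1334) and 1596 to 2022 at 4 weeks (median 1748). Its differences from saline were -0.27 (95% interval -0.51 to -0.03, limma adjusted p = 0.06816) and 0.16. Lmod1 (chr1:135324807-135368065, plus strand), which nucleates actin filaments in smooth muscle, ran from 104 to 421 in saline and 107 to 287 at 2 weeks, and its differences from saline in the 4 groups, between -0.32 and 0.19, did not pass the test.

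**Figure D4:**
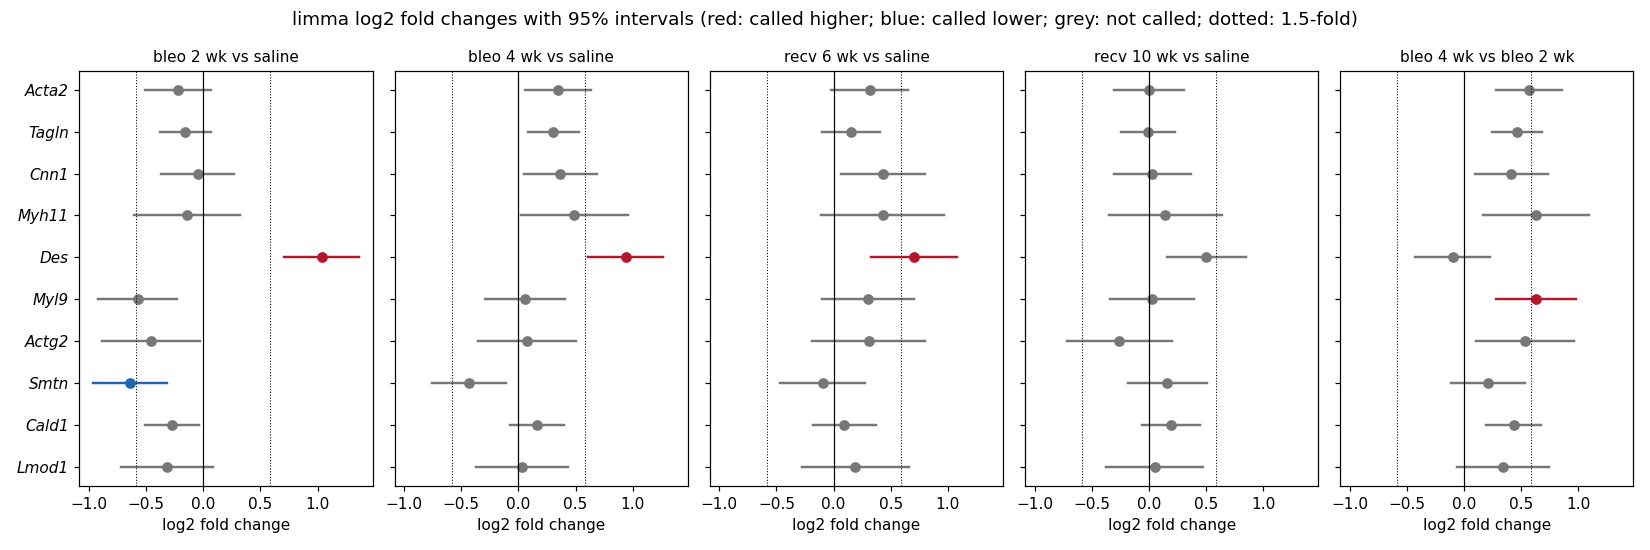
Log2 fold changes (horizontal axis) of the 10 contractile genes with 95% intervals from limma, for the 4 groups against saline and for 4 against 2 weeks of bleomycin; dotted lines mark 1.5-fold, red and blue mark genes called higher and lower. Des is called higher in 3 of the comparisons with saline, Smtn is called lower at 2 weeks and Myl9 higher between 2 and 4 weeks.

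Counted over the list, 2 of 10 members were called at 2 weeks (Des higher, Smtn lower) where 16.7% of all genes were, 1 at 4 weeks (17.9% of all genes), 1 after 6 weeks of recovery (5.04%) and 0 after 10 weeks (3.05%). The median log2 difference from saline over the members was -0.25 at 2 weeks, 0.23 at 4 weeks, 0.30 after 6 weeks of recovery and 0.04 after 10 weeks, beside medians within 0.003 of 0 over all genes. These comparisons share the saline mice. At 2 weeks 9 of 10 estimates were below 0 and at 4 weeks 9 of 10 above it. Many members varied together within groups, so these counts are not 10 separate results.

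From the end of bleomycin at 4 weeks to 6 weeks after it, 0 of 10 members were called by limma (11.9% of all genes), 0 had an unadjusted p under 0.05, and edgeR and DESeq2 also called 0. From 6 to 10 weeks of recovery 0 of 10 were called by limma, edgeR or DESeq2 (0.088% of all genes by limma) and 2 had an unadjusted p under 0.05, Actg2 and Cnn1, with log2 differences of -0.56 and -0.40. After 10 weeks of recovery 1 member, Des, had an unadjusted p under 0.05 against saline, and edgeR and DESeq2 also called 0.

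Of the lists read beside the members, 14 measured genes of the thin filament and dense plaque gave 0 calls by limma at 2 weeks (6 at an unadjusted p under 0.05), 2 higher at 4 weeks, 3 higher after 6 weeks of recovery and 2 after 10 weeks, with none lower. Pgm5, a protein of cell junctions and muscle, rose by 0.81 at 4 weeks (SE 0.17, limma adjusted p = 0.0001408). Pdlim3, an actinin-associated protein, rose by 0.82 after 6 weeks of recovery (limma adjusted p = 0.00296), and Synpo2 (myopodin, an actin-bundling protein) by 0.70 after 10 weeks (limma adjusted p = 0.008414).

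Of the channel and calcium genes, 5 of 10 were higher at 2 weeks, 5 at 4 weeks, 3 after 6 weeks of recovery and 1 after 10 weeks, against 9.3%, 10.5%, 3.33% and 2.05% of all genes that were higher. Trpc6, a receptor-operated calcium channel, rose by 1.45 at 2 weeks (SE 0.26, limma adjusted p = 1.361e-05) from a median of 7.43 normalized counts to 18.9. Casq2, the calcium store protein calsequestrin, rose by 2.10 at 4 weeks (SE 0.20, limma adjusted p = 1.745e-11) and was still higher by 0.81 after 10 weeks of recovery. Pln, the inhibitor of the calcium pump, was higher by 1.23 after 6 weeks of recovery (limma adjusted p = 0.002328). Casq2 and Pln are also genes of slow and cardiac muscle, whose markers moved in the same groups, and the part of those muscles in these rises was not tested.

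Among 10 measured genes that set myosin phosphorylation, 1 was higher at 2 weeks and at 4 weeks: Prkg1, the cGMP-dependent kinase that relaxes smooth muscle, by 1.23 and 1.52 (limma adjusted p = 0.002552 and 0.0002136). Of 10 transcription factor genes, 0 were called at 2 weeks by limma (4 at an unadjusted p under 0.05) and 1 at 4 weeks, Myocd, the coactivator myocardin, which rose by 0.95 (SE 0.29, limma adjusted p = 0.008205) from a median of 14.6 to 24.2 normalized counts. Srf, its DNA-binding partner, was below saline at 4 weeks by 0.31 on the log2 scale (limma adjusted p = 0.0004046), under the fold threshold. Of all genes, 9.3% and 10.5% were called higher at 2 and 4 weeks. The 1 of 10 in the phosphorylation list, and in the transcription factor list at 4 weeks, is near that share. Of 9 nonmuscle actomyosin genes 2 were lower at 2 and 4 weeks, and 7.43% of all genes were called lower at 2 weeks. The larger fall was that of Myh10, nonmuscle myosin IIB, by 1.02 at 2 weeks (limma adjusted p = 1.083e-06) and by 0.78 at 4 weeks (limma adjusted p = 9.101e-05).

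Markers of other skin cells moved in the same comparisons. The shares of all genes called higher are those given above, and 7.43% were called lower at 2 weeks. The 11 genes of activated fibroblasts (with Postn and Fn1) were 1 higher and 3 lower at 2 weeks, 4 higher and 3 lower at 4 weeks, 4 higher after 6 weeks of recovery and 2 after 10 weeks, and between 2 and 4 weeks 5 were higher. They summed to between 14043 and 19488 in saline, 6400 and 14886 at 2 weeks, 10759 and 26220 at 4 weeks, 22028 and 26588 after 6 weeks of recovery and 15944 and 27307 after 10 weeks. The 9 fibroblast genes were 6 lower at 2 weeks and 3 lower at 4 weeks, and 1 was lower in each recovery group. The 8 leukocyte genes, with Lyz2 the highest, were 6 higher at 2 and 4 weeks, with sums of 8020 to 20951 in saline, 21111 to 41731 at 2 weeks and 18755 to 36693 at 4 weeks, and 0 of 8 were called by limma, or had an unadjusted p under 0.05, in either recovery group. The 9 endothelial genes were 2 higher at 2 and 4 weeks and 6 after 6 weeks of recovery, and 0 of 9 were called by limma after 10 weeks (6 at an unadjusted p under 0.05). The 7 fat cell genes were 3 lower at 2 and 4 weeks and the 7 of basal epidermis 1 higher at 4 weeks, with no other call in either list against saline. Their parts in the members' values were not tested.

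Within groups the members fell into a close set and a loose one. Over the 44 mice, deviations from the group mean of Acta2 followed those of Myl9 with r of 0.94 and rho of 0.91, of Actg2 with r of 0.93 and rho of 0.93 and of Cnn1 with r of 0.83 and rho of 0.87 (each permutation p = 1e-05, the smallest these permutations can give, adjusted p = 4.9e-05 for r and 4.083e-05 for rho). Without the 2 farthest mice these r were 0.91, 0.90 and 0.90. Within single groups, r of Acta2 with Myl9 was 0.95 in saline, 0.99 at 2 weeks, 0.64 at 4 weeks, 0.98 after 6 weeks of recovery and 0.96 after 10 weeks.

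Smtn and Cald1 stood apart from that set. Acta2 followed Smtn with r of 0.39 (permutation p = 0.00601, adjusted p = 0.01402) and rho of 0.40 (permutation p = 0.00825, adjusted p = 0.01758), which dropped to an r of 0.24 without the 2 farthest mice, and within groups r ran from -0.77 after 6 weeks of recovery to 0.87 at 4 weeks. The median r with the other 9 members was 0.72 for Myh11, 0.71 for Cnn1 and 0.70 for Acta2, and was lowest for Smtn at 0.28, then 0.35 for Tagln, 0.37 for Cald1 and 0.44 for Des. Smtn and Cald1 were closest to each other (r of 0.65), and Des and Cald1 were the pair with the lowest r (-0.28), given as descriptions of the 44 mice.

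Several members followed the pericyte score, Des with r of 0.70 and rho of 0.70 among them (permutation p = 1e-05, adjusted p = 4.9e-05 and 4.083e-05). For Des r was 0.63 without the 2 farthest mice and 0.22 within the 2-week mice. Among the latter, mouse 2 had the lowest pericyte sum (4385) beside the highest Des (21155). Lmod1 followed the pericyte score with r of 0.79 and rho of 0.78 and Myh11 with r of 0.78 and rho of 0.73 (each permutation p = 1e-05, adjusted p = 4.9e-05 for r and 4.083e-05 for rho). Without the 2 farthest mice these r were 0.75 and 0.69. Within groups r of Lmod1 ran from 0.48 after 6 weeks of recovery to 0.88 at 4 weeks, and that of Myh11 from 0.12 after 6 weeks of recovery to 0.91 at 2 weeks. Lmod1 also followed the fast muscle score (r of 0.71, rho of 0.67, permutation p = 1e-05 and 2e-05, adjusted p = 4.9e-05 and 6.533e-05). Tagln had r of 0.01 with the pericyte score (permutation p = 0.967, adjusted p = 0.967) but rho of 0.39 (permutation p = 0.0121, adjusted p = 0.0237) and r of 0.41 without the 2 farthest mice; r was -0.78 within saline and 0.74 at 2 weeks.

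**Figure D5:**
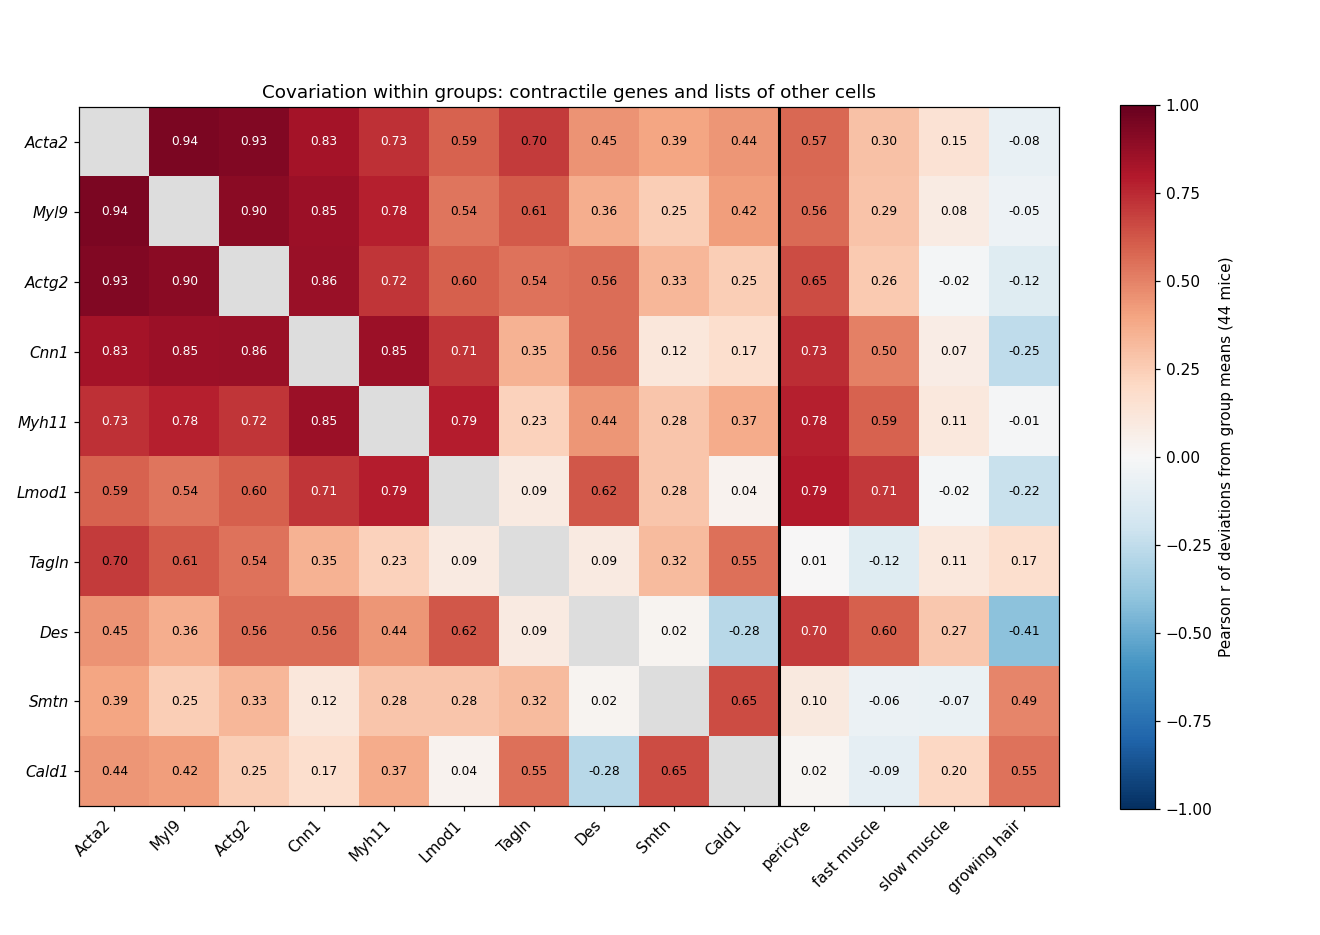
Pearson's r of deviations from group means over the 44 mice between contractile genes (left block) and between each gene and the scores of pericyte, fast muscle, slow muscle and growing-hair genes (right block); red is positive, blue negative, grey the diagonal. Acta2, Myl9, Actg2, Cnn1 and Myh11 form a block with r from 0.72 to 0.94, and Smtn and Cald1 are closest to each other. Smtn is next closest to hair, and Cald1 to Tagln and hair alike (r of 0.55 each).

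Outside the list, among 12630 genes with a mean above 50, the deviations most like the mean of the 10 members over the 44 mice were those of Egflam (r of 0.90), an extracellular matrix protein, followed by Ephx1 and Syde1 (0.87 each), Nptx2 (0.87), Dkk3, Fmod, Prelp, Col15a1 and Daam2 (0.85 each) and Zhx2 (0.85). Fmod, Prelp and Col15a1 encode matrix proteins. For Acta2 alone they were Ephx1 and Egflam (0.86 each) and Nptx2 (0.84). Ephx1, an epoxide hydrolase, was itself higher than saline by 0.64 at 2 weeks and 0.96 at 4 weeks (limma adjusted p = 2.968e-06 and 4.554e-10). Col15a1, Nptx2 and Fmod went the other way at 2 weeks, with log2 fold changes of -0.96, -0.73 and -0.72 (limma adjusted p = 0.001077, 0.009141 and 0.03927). They were not called at 4 weeks, and the other genes nearest the members' mean were not called at 2 weeks. Of those, Zhx2, Dkk3 and Syde1 were lower at 2 weeks but under the fold threshold. Their log2 fold changes were -0.58, -0.41 and -0.32 (limma adjusted p = 2.844e-05, 0.007531 and 0.02374). Egflam, Prelp and Daam2 did not pass the test.

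Des had other neighbours: Nol3 (r of 0.92), Bin1 (0.91) and Hspb2 (0.89), each of which is known from striated muscle. Nol3 rose at 2 weeks by 0.76, at 4 weeks by 0.91 and after 6 weeks of recovery by 0.65 (limma adjusted p = 1.246e-06, 2.537e-08 and 0.001466), beside 1.04, 0.94 and 0.70 for Des. Hspb2, a small heat shock protein, was higher than saline in all 4 groups, by 0.69, 0.75, 0.90 and 0.76. Closest to Cald1 were Nkd2 (0.88), a modulator of WNT signalling, Fads2 (0.88), a fatty acid desaturase, and Pitrm1 (0.87). Fads2, Nkd2 and Pitrm1 were each lower than saline at 2 weeks, with log2 fold changes of -1.37, -0.67 and -0.62 (limma adjusted p = 2.371e-05, 0.003096 and 0.0004131). These r values over the same libraries are descriptions and carry no test.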

How the data were processed

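RNA from skin pieces of 44 mice was sequenced with a stranded mRNA kit. The authors aligned reads to mm10 with STAR 2.4.0, counted them per gene and deposited normalized counts, a signal of counts divided by 1 DESeq2 (1.12.3) size factor per mouse; the counting tool, strand setting and annotation are not given in the sources used here. Whole reads were recovered from the steps between values: within a tolerance of 0.01, every mouse had 100% of its values whole. Gene symbols and positions are those of GENCODE vM21 (GRCm38). Groups follow the labels. The 2 recovery groups had 4 weeks of bleomycin first, per the study's methods.

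Genes with a mean normalized count above 3 (17037) were tested with limma-trend (limma 3.58.1, R 4.3.3) after a log2 transform with a pseudocount of 1; 1 fit held all 5 groups. This scale understates changes of low genes. A gene was called at an absolute fold change above 1.5 and a Benjamini-Hochberg adjusted p below 0.05 over all genes. In simulated data for 2 weeks against saline (16963 genes for limma), limma called 93% of 2-fold and 100% of 4-fold changes and 2 unchanged genes. Correlations used deviations of log2 values from group means, with two-sided permutation tests of 100000 resamples within groups. Recovered reads were also given to the quasi-likelihood test of edgeR 4.0.16 and to DESeq2 1.42.0. Python 3.11.15, numpy 2.4.6 and matplotlib 3.10.9 were also used.

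All 10 members were described. From each companion list, the genes with the largest rise and fall among those called against saline were named and, from lists of other cells, examples of the highest level. Outside the list, the 10 genes nearest in deviation to the members' mean and the 3 nearest to Acta2, Des and Cald1 were named. Srf was named after its values were seen. The members, lists and the 2 mice set apart were chosen with earlier results of these data known. Rock1, Rock2, Cfl1, Tchh and Krt85 were not analysed here. Promoters of Tagln, Myh11 and Actg2 were not used. Alternatives were a pseudocount of 0.1, 2 other filters, no fold threshold, trimmed-mean rescaling, fits of 2 groups, a replicate block, both count tests, leaving out mice and, for levels, no length correction. Leaving out each mouse, or the 4 least like their group, was added after seeing the data. Mice sharing a replicate number are different animals and did not deviate together (median r -0.002 over 78 pairs), so the numbers do not pair them.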

Additional observations from a re-analysis of the deposited data

Results flagged for a closer look

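Of 50 sets of values (10 members in 5 groups), 5 held a mouse set far from the rest of its group, where chance gives about 1 in 20. Saline mouse 2 was the lowest of its group for Acta2 at 1656 normalized counts, with 2683 in the next mouse, and for Myl9 at 572.1, with 976.5 in the next. Tagln was highest in saline mouse 1 at 1947, with 1194 in the next. After 6 weeks of recovery mouse 4 was lowest for Myh11 at 1780 (next 2124) and highest for Smtn at 1653 (next 1320). Saline mouse 2 had the lowest growing-hair sum of its group (2230) and saline mouse 1 the highest (232906).

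Myl9 differed between the effects of 2 and of 4 weeks of bleomycin against the shared saline mice, by the test of the difference itself: 0.6291 on the log2 scale (SE 0.17, limma adjusted p = 0.0229), with 10 of 10 mice of the 4-week group above the 2-week median.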

How the results depend on the processing

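Des at 2 and 4 weeks kept its direction and its call in every alternative, with log2 fold changes from 0.80 to 1.09 and from 0.76 to 1.01. No called estimate turned its direction. Without a fold threshold, 3 members were called at 2 weeks (Des higher, Smtn and Myl9 lower), 3 at 4 weeks (Des and Tagln higher, Smtn lower) and 4 between 2 and 4 weeks (Tagln, Cald1, Acta2 and Myl9). The call of Myl9 between 2 and 4 weeks was lost, leaving 0, with a fit of only the 2 groups (limma adjusted p = 0.08015), with edgeR (0.06705), with DESeq2 (0.04349, under the fold threshold), without saline mouse 1 and 2-week mouse 2, and without the 4 mice least like their groups. Without those 2 mice 1 member, Des, was called at 2 weeks; without those 4 mice 0 were called after 6 weeks of recovery (Des 0.53, limma adjusted p = 0.02504, under the fold threshold). Leaving out each mouse gave 2 to 3 members at 2 weeks (Myl9 added without saline mouse 2 or 2-week mouse 3, 8, 9 or 10, and in place of Smtn without saline mouse 1), 1 to 1 at 4 weeks, 0 to 1 after 6 weeks of recovery, 0 to 0 after 10 weeks, 0 to 3 between 2 and 4 weeks and 0 to 0 in the other 2 comparisons. Between 2 and 4 weeks it was 0 without 2-week mouse 2, 5 or 7, 3 without 2-week mouse 3, and 2 without 2-week mouse 8, 9 or 10 or 4-week mouse 1 or 3. The causes were not tested. With the replicate block, 2, 1, 1, 0, 1, 0 and 0 members were called, as without it, and 4 of 44 mice correlated best with a mouse of their own number. The sign of uncalled estimates changed 25 times in the other alternatives and 47 times when mice were left out. Without length correction, 7 of 10 members changed rank in saline.

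Over all genes, counts without a fold threshold were 6063 (2851 with it) at 2 weeks, 6242 (3053) at 4 weeks, 1547 (859) and 994 (519) after 6 and 10 weeks of recovery, 956 (400) between 2 and 4 weeks and 4260 (2035) between 4 weeks and recovery. Fits of 2 groups gave 326 (519) after 10 weeks of recovery and 56 (15) from 6 to 10 weeks, where DESeq2 gave 63 and the fit without 2 mice 58. The share called higher moved by over 10 points with DESeq2 after 6 and 10 weeks of recovery (66.0% to 55.9% and 67.2% to 56.6%), from 6 to 10 weeks (20% to 34.9%) and between 2 and 4 weeks (63.2% to 52.8%, and to 52.9% with edgeR), without a fold threshold after 6 weeks (to 55.0%), and without 2 mice after 10 weeks (to 52.3%). Trimmed-mean rescaling shifted medians by at most 0.0169 on the log2 scale. At 8509094 to 15285577 reads, Trpc6 and Myocd rest on few reads.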
